A study of Mus musculus with 10 samples.

Results

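The genes described are the Fos family (Fos, Fosb, Fosl1 and Fosl2), the Jun family (Jun, Junb and Jund) and the small Maf genes Maff and Mafk, on Affymetrix mouse arrays of heated and unheated mouse embryonic fibroblasts. They were taken as all probe sets annotated to these 9 symbols, which gave 13 probe sets of the 45101 on each array and 9 of the 18193 genes with a probe set of their own. Fosl1, Fosl2, Jun and Jund had a second probe set. All 9 passed the filter on dim genes and were among the 10915 genes tested.

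The study set a fibroblast line labelled hsp70 knockout or (-/-), here KO-labelled, against a line labelled hsp70 rescue or (+/+), here rescue-labelled. Preshocked cells were heated at 43 °C for 30 minutes and harvested 3 hours after the heat, and unheated cells of the same line were harvested after the same 23 hours in culture. Of the KO-labelled line there were 3 preshocked and 3 unheated arrays, and of the rescue-labelled line 2 and 2, each from 144 pooled wells. By the array numbers in the labels, preshocked and unheated samples of a line stand next to each other, which makes 5 pairs. The labels do not describe how the deletion or its rescue was made, whether a line is 1 clone, or whether samples are separate cultures. The p-values therefore cover the spread between these samples, which may be technical.

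Fos and Jun proteins are basic leucine zipper transcription factors that pair to form activator protein 1 (AP-1), which binds the DNA motif TGACTCA. Jun proteins can pair with each other, whereas Fos proteins bind DNA only with a partner. Fos, Fosb and Junb are immediate early genes: in fibroblasts a growth factor or a stress raises their transcripts within minutes through MAP kinases, serum response factor (SRF) and CREB-type factors, and the transcripts are short-lived. Fosl1 and Fosl2 encode Fra-1 and Fra-2, which act later and lack the strong activation domain of Fos. Small Maf proteins have the zipper but no activation domain, and they form dimers with NRF2 and its relatives or with the repressors BACH1 and BACH2 at antioxidant response elements.

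The RefSeq promoter table (GRCm38.p6) held windows for 8 of the 9 genes, the exception being Fosl1, and the 250 bases before each annotated start were searched on both strands. The letters TGACG, the core of a CREB or ATF site that is also contained in the longer TGACGTCA, were present for Fos, Fosb, Junb, Maff and Mafk. Those 5 of 8 genes compare with 19.8% of the 27025 genes in the table. TGACATCA, a variant AP-1 site described in the Jun promoter, was present for Jun and at another start of Maff, against 3.41% of genes. The canonical TGACTCA was found for 0 of the 8 genes (5.16% of all genes), and the CArG box, the binding motif of SRF, for 0 (1.62%). Bases farther upstream were not searched, so these windows cannot show that a promoter, such as that of Fos, lacks either motif. Heat shock element letters written as GAANNTTC were found for Fosl2 and Jun (7.73% of genes), as TTCNNGAA for 0 (8.11%), and TATAAA for Fos alone (14.3%). The motifs were chosen after the letters and the arrays had been seen, so the shares describe these windows and no test was made. Each stretch below runs 5′ to 3′ with 12 bases before the motif, which is in capitals. The Fosb and Maff stretches lie inside the annotated span of their gene, before a start that is not its outermost.
Fos, chr12:85473749-85473778, plus strand: ggggcgtagagtTGACGacagagcgcccgc
Fos, chr12:85473812-85473841, plus strand: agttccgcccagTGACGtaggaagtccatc
Fosb, chr7:19310088-19310117, minus strand: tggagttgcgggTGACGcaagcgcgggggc
Junb, chr8:84978837-84978866, minus strand: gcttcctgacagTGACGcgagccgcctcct
Maff, chr15:79347479-79347508, plus strand: cggctggggcggTGACGTCActgcatgact
Mafk, chr5:139791483-139791512, plus strand: ggggcggggcggTGACGcgcttcgacgcgc
Jun, chr4:95052250-95052279, minus strand: aaagcctcggggTGACATCAtgggctattt

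The whole windows of Fos, Junb, Mafk and Jun are given because they show where these letters stand relative to the start, which follows the last base. Capitals mark TGACG, TGACATCA and TATAAA. In Fos the TGACG matches begin 129 and 66 bases before the start and TATAAA follows at 33 bases. In Mafk and Junb the single TGACG begins at 41 and 106 bases, and in Jun TGACATCA begins at 45 bases.
Fos, chr12:85473640-85473889, plus strand: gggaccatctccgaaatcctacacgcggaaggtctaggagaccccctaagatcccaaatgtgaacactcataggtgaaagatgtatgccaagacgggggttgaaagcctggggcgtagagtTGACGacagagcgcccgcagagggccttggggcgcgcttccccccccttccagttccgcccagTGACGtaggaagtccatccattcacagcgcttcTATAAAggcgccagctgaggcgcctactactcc
Junb, chr8:84978749-84978998, minus strand: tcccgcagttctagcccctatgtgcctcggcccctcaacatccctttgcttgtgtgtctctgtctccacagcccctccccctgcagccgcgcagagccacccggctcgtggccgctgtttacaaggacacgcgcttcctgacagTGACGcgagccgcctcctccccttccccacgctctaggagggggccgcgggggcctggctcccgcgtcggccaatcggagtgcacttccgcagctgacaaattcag
Mafk, chr5:139791286-139791535, plus strand: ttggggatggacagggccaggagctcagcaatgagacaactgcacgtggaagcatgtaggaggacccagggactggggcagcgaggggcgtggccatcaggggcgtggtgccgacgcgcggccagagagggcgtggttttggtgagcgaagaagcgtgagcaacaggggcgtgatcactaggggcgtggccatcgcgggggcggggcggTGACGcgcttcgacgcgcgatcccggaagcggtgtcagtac
Jun, chr4:95052223-95052472, minus strand: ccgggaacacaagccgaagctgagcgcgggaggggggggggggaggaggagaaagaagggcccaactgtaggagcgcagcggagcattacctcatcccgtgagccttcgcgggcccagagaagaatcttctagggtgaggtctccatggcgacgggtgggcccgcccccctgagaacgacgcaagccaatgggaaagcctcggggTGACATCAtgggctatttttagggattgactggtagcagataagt

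The target of the knockout label was checked first. Hspa1b, which encodes an inducible Hsp70, had deposited intensities of 19912, 30652 and 31556 on the KO-labelled preshocked arrays, against 212, 477 and 220 on the KO-labelled unheated arrays. On the rescue-labelled preshocked arrays it had 37506 and 24677, against 675 and 465 on the rescue-labelled unheated arrays. The transcript thus rose in both lines, and the position of its probe set with respect to the deletion is unknown, so directions between the lines rest on the labels. The 9 fibroblast markers on the arrays summed to between 55670 and 85410 in all groups, while 5 markers each of epithelial, endothelial and muscle cells summed to at most 873 on any array, 5 of macrophages and leukocytes to at most 1539 and 5 of neural cells to at most 4641. Arrays 5 and 6, a KO-labelled pair, had median intensities of 100.4 and 107 against 50.7 to 73.7 on the other 8, and they lay apart from the rest on the leading principal component (35.3% of the variance). Endothelial markers stood higher after preshock without a call: 2 of 5 were tested, with median changes of 1.62 log2 in the KO-labelled line and 0.76 log2 in the rescue-labelled line. Their summed intensity was 166 to 488 on KO-labelled preshocked and 78.5 to 473 on KO-labelled unheated arrays, and 206 to 222 against 143 to 183 in the rescue-labelled line. Their part in the results below was not tested.

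After preshock, Fos, Fosb, Junb and Maff rose in the KO-labelled fibroblasts, by 2.78, 2.92, 2.10 and 1.54 on the log2 scale, and Fosb and Maff rose in the rescue-labelled fibroblasts, by 2.73 and 1.56. Averaged over the lines, these genes and Mafk were called as higher, 5 of 9, and 0 of 9 as lower. Fosl1, Fosl2, Jun and Jund were not called in either line or on average, and Mafk was called on average only. The background was 0.944% of the 10915 genes called as higher in the KO-labelled arrays, where 4 of 9 members were, 0.275% in the rescue-labelled arrays, where 2 of 9 were, and 1.84% for the average of the lines. Genes called as lower made up 0.825%, 0.0825% and 2.57% in the same comparisons. The 9 genes were chosen with earlier results of these data known, so these shares describe them and test nothing. With array pairs as a block, 6, 1 and 6 of the 9 genes were called as higher, against backgrounds of 3.33%, 0.733% and 5.87%. Calls were made with limma at a threshold of 0.05 after Benjamini-Hochberg adjustment over all 10915 genes. The median log2 change of the 9 genes was 1.14 in the KO-labelled and 1.03 in the rescue-labelled arrays, against medians of -0.04 and -0.03 over all genes. In the bulk RNA of pooled wells, fewer cells with a transcript and less of it per cell cannot be told apart.

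**Figure D1:**
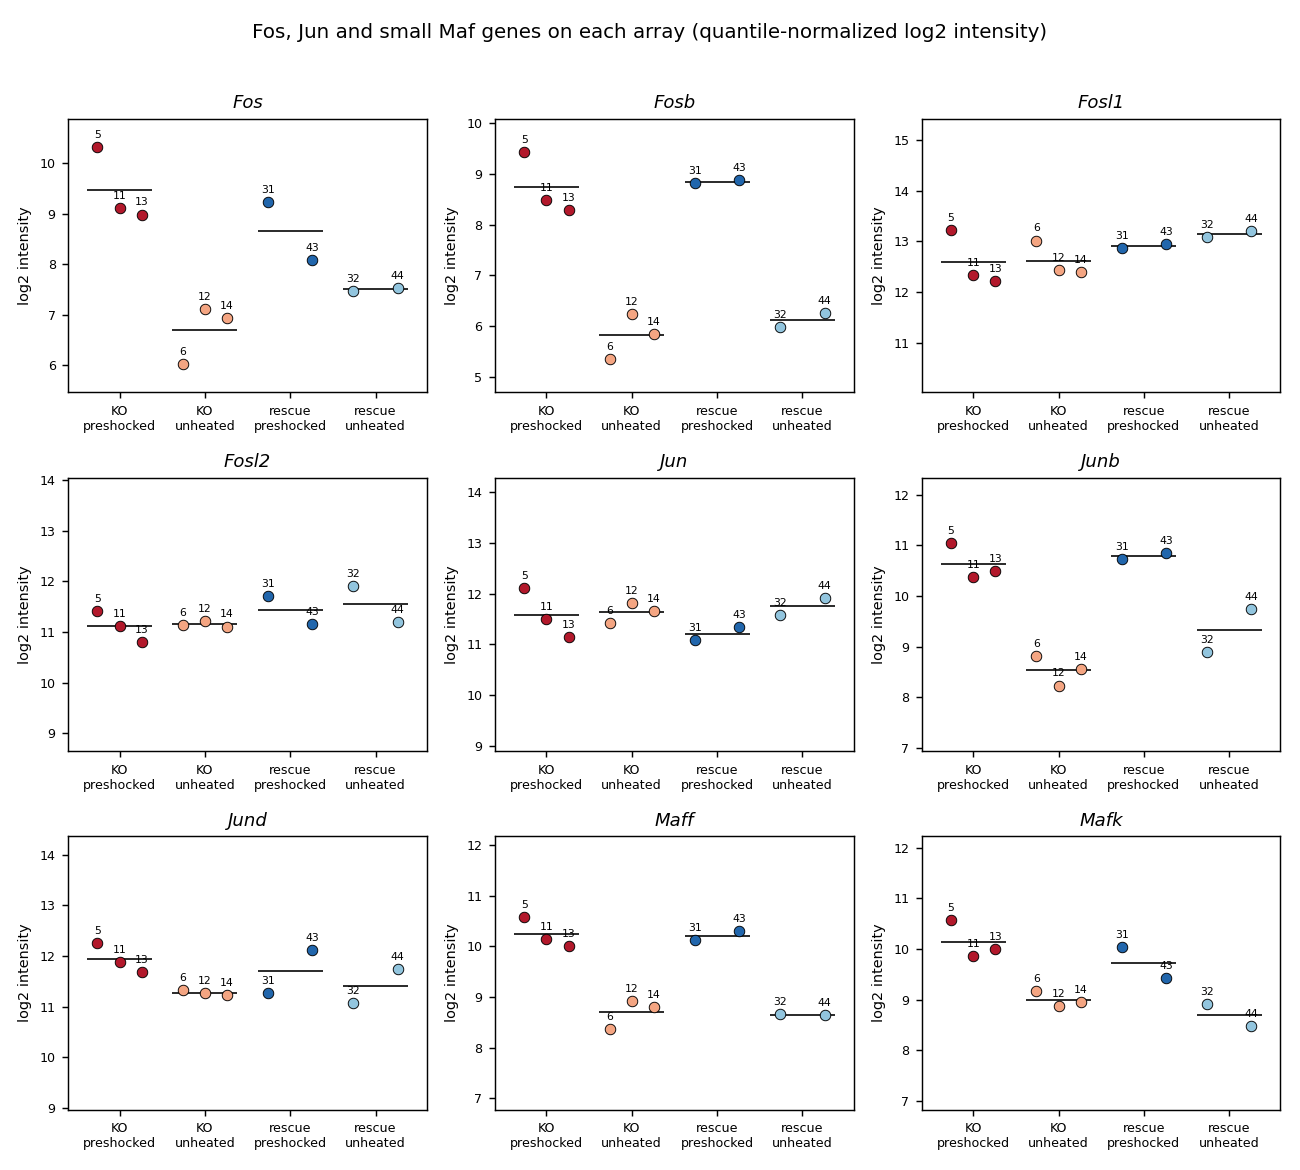
Quantile-normalized log2 intensity (y axis) of the probe set used for each of the 9 genes on each of the 10 arrays (points, with the array number of the labels), by group (x axis), with a bar at the group mean. Each panel spans the same height. Fos, Fosb, Junb, Maff and Mafk stand higher on each preshocked array than on any unheated array of the same line, and Fosl1, Fosl2 and Jun do not.

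Fos, the founding member and a partner of every Jun protein, lies on chromosome 12 from 85473890 to 85477274 (GRCm38.p6; gene 14281). Its deposited intensity was 1273, 532 and 445 on the KO-labelled preshocked arrays 5, 11 and 13, against 109, 152 and 107 on the KO-labelled unheated arrays 6, 12 and 14. On the rescue-labelled preshocked arrays 31 and 43 it was 557 and 263, against 163 and 186 on the rescue-labelled unheated arrays 32 and 44. All preshocked arrays stood above all unheated arrays, with array 5 far above the other preshocked arrays and array 43 nearest to the unheated ones. The normalized change was 2.78 ± 0.45 log2 (SE, 6.85-fold, adjusted p = 0.0249) in the KO-labelled arrays and 1.15 ± 0.55 (adjusted p = 0.650) in the rescue-labelled arrays, and the average of the lines was 1.96 ± 0.36 (adjusted p = 0.0214). Without any 1 array the KO-labelled change stayed between 2.40 and 3.01, but its call ended without KO preshocked replicate 2 (adjusted p = 0.0723), KO unheated replicates 1, 2 or 3 (0.0706, 0.0629 and 0.0617), rescue unheated replicates 1 or 2 (0.0515 and 0.0510), and without both arrays of the pair 5 and 6 (2.11 ± 0.36, adjusted p = 0.0554). The rescue-labelled change was 0.57 without rescue preshocked replicate 1 and 1.72 without replicate 2. The call of the average ended without rescue preshocked replicate 1 (adjusted p = 0.0808) or rescue unheated replicates 1 or 2 (0.0734 and 0.0852).

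Fosb, whose gene also yields a truncated form without the activation domain, lies on chromosome 7 from 19302696 to 19310118. It had 719, 349 and 271 on the KO-labelled preshocked arrays, against 70.3, 85.8 and 49.8 on the KO-labelled unheated arrays. The rescue-labelled preshocked arrays gave 407 and 478, against 50.2 and 65.2 on the rescue-labelled unheated arrays. Every preshocked array was above every unheated array, with no array near the gap. The change was 2.92 ± 0.32 log2 (7.59-fold, adjusted p = 0.00633) in the KO-labelled and 2.73 ± 0.40 (6.62-fold, adjusted p = 0.0327) in the rescue-labelled arrays. The average, 2.83 ± 0.26 (adjusted p = 0.00103), was the 10th largest rise among the 10915 genes. The unheated values lay near the medians of their arrays, such as 70.3 against 107 on array 6 and 50.2 against 50.7 on array 32, and no detection calls were used, so the size of the rise rests on dim values. With values under 32 set to 32 the average was 2.82 ± 0.25. Every Fosb intensity lay above 32, so this floor does not test the dim values of this gene. The rescue-labelled call ended when array pairs were a block (adjusted p = 0.0629), without any 1 of the 4 rescue-labelled arrays (0.152 to 0.234), and without replicate 2 of KO preshocked (0.0668) or replicates 1 or 2 of KO unheated (0.0697 and 0.0530).

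Junb, a Jun protein that activates less strongly than Jun and can oppose it, lies on chromosome 8 from 84976909 to 84978748. It had 2076, 1315 and 1386 on the KO-labelled preshocked arrays, against 507, 319 and 357 on the KO-labelled unheated arrays. On the rescue-labelled preshocked arrays it had 1675 and 1883, against 474 and 906 on the rescue-labelled unheated arrays. The groups did not overlap in either line, and array 44 was the highest unheated array. The change was 2.10 ± 0.27 log2 (4.29-fold, adjusted p = 0.0104) in the KO-labelled arrays, and the call ended without KO unheated replicate 2 (adjusted p = 0.0525). It was 1.47 ± 0.33 (adjusted p = 0.161) in the rescue-labelled arrays and 1.78 ± 0.22 (adjusted p = 0.00428) on average.

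Among the small Maf genes, Maff, which is stress-inducible in many cell types, lies on chromosome 15 from 79346621 to 79359078. It had 1494, 1111 and 954 on the KO-labelled preshocked arrays, against 385, 507 and 426 on the KO-labelled unheated arrays. The rescue-labelled preshocked arrays had 1074 and 1292, against 401 and 431 on the rescue-labelled unheated arrays. Again no preshocked array reached down to the unheated ones, and within each state the ranges of the lines overlapped. The change was 1.54 ± 0.20 log2 (2.91-fold, adjusted p = 0.0104) in the KO-labelled arrays and 1.56 ± 0.24 (2.95-fold, adjusted p = 0.0454) in the rescue-labelled arrays, with an average of 1.55 ± 0.16 (adjusted p = 0.00182). The KO-labelled call ended without KO preshocked replicate 2 (adjusted p = 0.0509) and with arrays centred on their medians (1.50 ± 0.33, adjusted p = 0.111). The rescue-labelled call ended with the pair block (adjusted p = 0.0632), without any 1 of the 4 rescue-labelled arrays (0.209 to 0.277), and without KO preshocked replicates 2 or 3 or KO unheated replicates 1 or 2 (0.0610 to 0.106). It also ended with the deposited scaling (0.0511), median centring (0.353) and the mean over probe sets (0.0701).

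Mafk, the small Maf best known as a partner of NRF2 and BACH1, lies on chromosome 5 from 139791536 to 139802653. It had 1492, 908 and 953 on the KO-labelled preshocked arrays, against 629, 489 and 479 on the KO-labelled unheated arrays. It had 1005 and 699 on the rescue-labelled preshocked arrays, against 478 and 385 on the rescue-labelled unheated arrays. The groups did not overlap within either line, though array 43 came within reach of array 6 of the other line. The changes were 1.14 ± 0.24 log2 (adjusted p = 0.0646) in the KO-labelled and 1.03 ± 0.30 (adjusted p = 0.288) in the rescue-labelled arrays, and the average, 1.08 ± 0.19, was called (adjusted p = 0.0184). With pairs as a block both lines were called (adjusted p = 0.0164 and 0.0483). The call of the average ended without KO unheated replicate 2, rescue preshocked replicate 1 or rescue unheated replicate 1 (adjusted p = 0.0502, 0.0741 and 0.0750), and with median centring (0.0581).

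Jund, a constitutively expressed Jun protein on chromosome 8 from 70697739 to 70700616, had 4545, 3820.4 and 3417 on the KO-labelled preshocked arrays, against 2446, 2457 and 2432 on the KO-labelled unheated arrays. On the rescue-labelled preshocked arrays it had 2531 and 4434, against 2185 and 3404 on the rescue-labelled unheated arrays. The KO-labelled groups did not overlap and the rescue-labelled groups did. The changes of 0.66 ± 0.26 log2 (adjusted p = 0.332) and 0.28 ± 0.33 (adjusted p = 0.9997) were not called. With array pairs as a block, Jund was called in the KO-labelled arrays (adjusted p = 0.0378) and on average (0.0307). Its other probe set was dim, with intensities from 17.6 to 82.2, and its arrays overlapped between preshocked and unheated cells in both lines.

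Jun, the Jun family member with the strongest activation domain, lies on chromosome 4 from 95049036 to 95052222. It had 4127, 2912 and 2269 on the KO-labelled preshocked arrays, against 2589, 3581 and 3307 on the KO-labelled unheated arrays. It had 2175 and 2651 on the rescue-labelled preshocked arrays, against 3111 and 3789 on the rescue-labelled unheated arrays. The KO-labelled groups overlapped, with array 5 the highest of all, and the rescue-labelled preshocked arrays were both below the unheated ones. The changes were -0.05 ± 0.25 log2 (95% interval -0.63 to 0.52, adjusted p = 0.999) in the KO-labelled arrays and -0.54 ± 0.31 (adjusted p = 0.773) in the rescue-labelled arrays. A second probe set of Jun gave 0.45 ± 0.30 and -0.33 ± 0.37, so the probe sets differ in sign in the KO-labelled arrays and neither was called. Centring arrays on their medians also turned the KO-labelled sign of the brighter probe set, to 0.03.

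The Fos-related genes Fosl1, on chromosome 19 from 5447698 to 5455938, and Fosl2, on chromosome 5 from 32136472 to 32157840, had no call. Fosl1 had 8295, 5319.5 and 5107 on the KO-labelled preshocked arrays, against 7026, 5326 and 5673 on the KO-labelled unheated arrays, and 8293 and 8004 on the rescue-labelled preshocked arrays, against 8904 and 9111 on the rescue-labelled unheated arrays. Its changes were -0.02 ± 0.28 log2 (95% interval -0.66 to 0.62) in the KO-labelled and -0.24 ± 0.34 in the rescue-labelled arrays. Fosl2 had 2629, 2239 and 1749 on the KO-labelled preshocked arrays, against 2174, 2362 and 2228 on the KO-labelled unheated arrays, and 3521 and 2340.1 on the rescue-labelled preshocked arrays, against 3902 and 2387 on the rescue-labelled unheated arrays. Its changes were -0.04 ± 0.24 (95% interval -0.59 to 0.51) and -0.12 ± 0.30. The KO-labelled signs turned when arrays were centred on their medians, to 0.11 for Fosl1 and 0.04 for Fosl2. The interval of each gene in the KO-labelled arrays ends below the rise of 1.54 seen for Maff. On their second probe sets the changes lay between -0.50 and 0.24 log2, and the arrays overlapped in both lines.

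**Figure D2:**
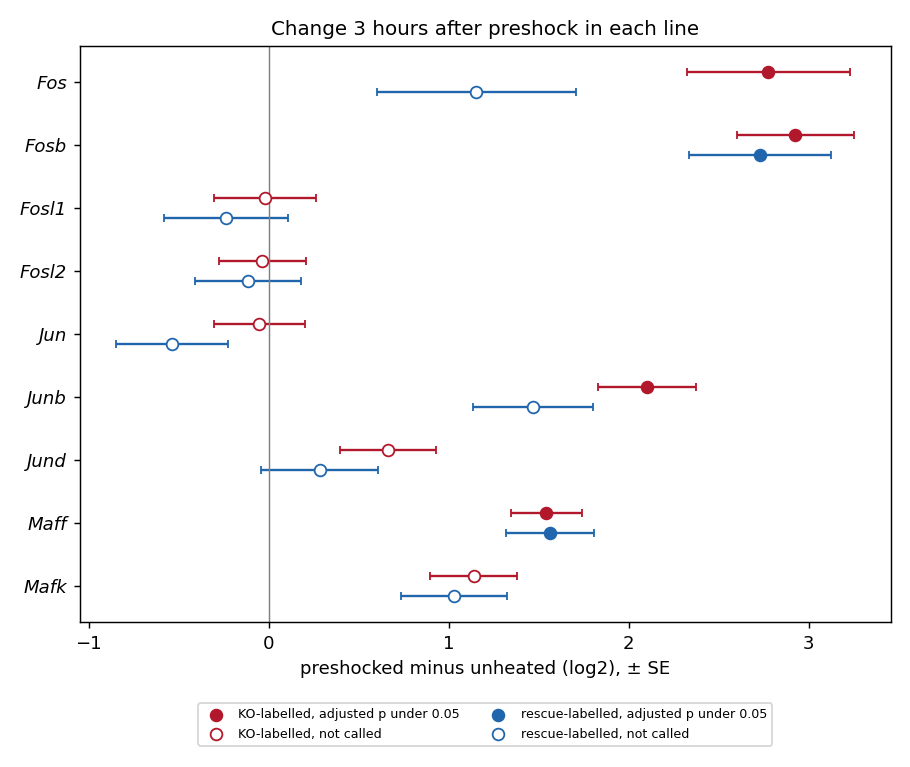
Change 3 hours after preshock (x axis, preshocked minus unheated, log2, with the standard error of the limma fit) of the 9 genes (y axis) in the KO-labelled (upper, red) and rescue-labelled (lower, blue) arrays. Filled points were called at an adjusted p under 0.05. Fos, Fosb, Junb and Maff are filled in the KO-labelled line, Fosb and Maff in the rescue-labelled line, and Fosl1, Fosl2, Jun, Jund and Mafk are open in both.

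Pair by pair, 6 of the 9 genes (Fos, Fosb, Junb, Jund, Maff and Mafk) were higher on the preshocked array in all 5 pairs, against 12.6% of all genes tested. Preshocked and unheated arrays did not overlap, with the preshocked higher, for 6 of 9 genes in the KO-labelled arrays (5.63% of all genes) and 5 of 9 in the rescue-labelled arrays (16.4%). In the rescue-labelled arrays Fosl1 and Jun did not overlap in the other direction (22.3% of all genes). The normalized difference of the pair 5 and 6 was the largest of the KO-labelled pairs for each of these 6 genes. For Fos it was 4.29 log2, against 1.99 and 2.05 in the other KO-labelled pairs and 1.77 and 0.54 in the rescue-labelled pairs. On the deposited scale the same Fos difference was 3.547 log2, below its normalized value. For Fosb the differences were 4.08, 2.25 and 2.44 in the KO-labelled pairs and 2.83 and 2.62 in the rescue-labelled pairs. Without this pair the KO-labelled changes were 2.47 ± 0.20 log2 for Fosb, 2.09 ± 0.29 for Junb and 1.24 ± 0.15 for Maff, each still called (adjusted p = 0.00608, 0.0324 and 0.0237).

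**Figure D3:**
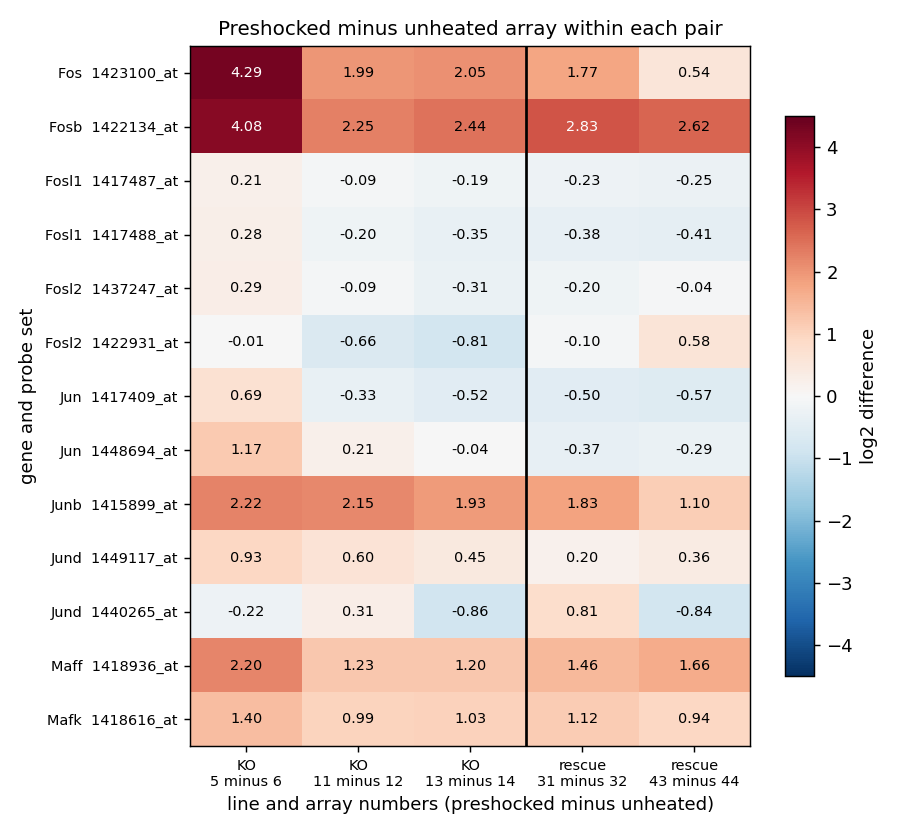
Preshocked minus unheated log2 intensity (colour and printed value) of each of the 13 probe sets (rows, with their gene) in each of the 5 array pairs (columns, KO-labelled left of the line and rescue-labelled right of it). Fos, Fosb, Junb, Maff and Mafk and the brighter Jund probe set are above 0 in all 5 pairs, and the 2 probe sets each of Fosl1, Fosl2 and Jun are not.

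In a fit of all 45037 probe sets with no filter on level, where more tests share the adjustment, 0 of the 13 probe sets were called in the KO-labelled arrays and 0 in the rescue-labelled arrays by limma (backgrounds of 0.0511% and 0.0222% called as higher). At an unadjusted p under 0.05, 6 of the 9 genes passed in the KO-labelled and 4 in the rescue-labelled gene fit, against 12.8% and 8.36% of all genes tested. For the average of the lines, 2 probe sets were called, those of Fosb (adjusted p = 0.0180) and Maff (0.0369), against 0.202% of all probe sets called as higher, and that of Junb stood at 0.0503.

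The responses of the lines were set against each other to ask whether the Hsp70 label goes with a different AP-1 response. For 0 of the 9 genes did the KO-labelled and rescue-labelled responses differ by limma (adjusted p = 1 for each, 0 of the 9 at an unadjusted p under 0.05, against 0.944% of all genes), and 0 of the 10915 genes were called. Fos had the widest gap, with a KO-labelled response larger by 1.62 ± 0.72 log2 and a 95% interval from -0.01 to 3.26. Without the pair 5 and 6 this difference was 0.91 ± 0.51, and without rescue preshocked replicate 2 it was 1.03 ± 0.74. For Fosb the difference was 0.20 ± 0.51 (interval -0.97 to 1.37), for Junb 0.63 ± 0.43 (-0.35 to 1.62), and for Maff -0.02 ± 0.31 (-0.73 to 0.70). These intervals are wide, and a missing call does not show that the lines responded alike.

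Between the unheated lines 0 of 9 genes were called (background 0.311% higher and 0.110% lower), and 1 of 9 passed an unadjusted p under 0.05, against 12.9% of all genes. That gene was Junb, at -0.78 ± 0.31 log2 in KO-labelled relative to rescue-labelled cells (adjusted p = 0.335). Fos stood at -0.81 ± 0.51 and Fosl1 at -0.53 ± 0.31, and for these 3 genes every KO-labelled unheated array was below both rescue-labelled unheated arrays on the normalized scale, as for 14.9% of all genes. In the deposited intensities Junb overlapped, with 507 on KO-labelled array 6 against 474 on rescue-labelled array 32. The second probe set of Fosl1 stood at -0.998 ± 0.317 log2 in KO-labelled relative to rescue-labelled unheated cells, without a call (adjusted p = 0.488). Between the preshocked lines 0 of 9 genes were called (0.238% higher and 0.101% lower) and 0 passed unadjusted, against 14.1% of all genes. Fos stood at 0.81 ± 0.51 there, with overlapping arrays. The order of the Fos group means was thus KO-labelled preshocked (9.47 log2), rescue-labelled preshocked (8.65), rescue-labelled unheated (7.50) and KO-labelled unheated (6.69), and of the neighbours in that order none differed by a called amount. For Fosb and Maff the preshocked means of the lines were 8.74 and 8.85, and 10.24 and 10.21, in KO-labelled and rescue-labelled arrays. The second probe set of Jun was higher in KO-labelled than in rescue-labelled preshocked arrays without overlap (1.002 ± 0.339 log2, adjusted p = 0.556), which its brighter probe set did not show (0.37 ± 0.28). The second probe set of Fosl1 was lower there without overlap (-0.693 ± 0.317 log2, adjusted p = 0.664). The share of all probe sets without overlap between the preshocked lines was not computed. These comparisons share their arrays with the within-line ones and are no separate evidence.

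Of 16 tested genes of the ATF, CREB, C/EBP, BATF and JDP families, 1 was called as higher and 0 as lower in each line and on average. Of all genes, 0.944% were called as higher in the KO-labelled arrays, 0.275% in the rescue-labelled arrays and 1.84% on average. The list had a median average change of 0.02 log2. The called gene was Atf3, a stress-induced partner of Jun proteins. Atf3 had deposited intensities of 4385, 2473 and 2822 on the KO-labelled preshocked arrays, against 126, 133 and 128 on the KO-labelled unheated arrays. It had 2635 and 2358 on the rescue-labelled preshocked arrays, against 88.0 and 48.4 on the rescue-labelled unheated arrays. Its change of 4.84 ± 0.34 log2 in the KO-labelled and 4.98 ± 0.41 in the rescue-labelled arrays (adjusted p = 4.69e-04 and 0.00253) exceeded that of every Fos, Jun and small Maf gene here. Jdp2, a repressor of AP-1, stood at -0.47 ± 0.14 on average (adjusted p = 0.117). Also without a call by limma, Atf4 stood at -0.49 ± 0.12 (adjusted p = 0.0561) and Cebpb at 0.70 ± 0.19 (0.0819) on average. With pairs as a block, 2 of the 16 (Atf3 and Cebpb) were called as higher and 1 (Atf4) as lower in the KO-labelled arrays, against 3.33% and 5.82% of all genes.

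Among 6 tested genes of the other Maf and of the CNC and Bach families, 1 was called as higher on average (1.84% of all genes), with a list median of -0.02 log2. It was Bach1, the repressor that competes with NRF2 for small Maf partners. Bach1 had 2616, 2323 and 1806 on the KO-labelled preshocked arrays, against 1248, 1327 and 1332 on the KO-labelled unheated arrays, and 2454 and 2230 on the rescue-labelled preshocked arrays, against 1481 and 1081 on the rescue-labelled unheated arrays. It rose by 0.86 ± 0.15 log2 on average (adjusted p = 0.0180) without a call in either line (0.0881 and 0.218). Nfe2l2, which encodes NRF2, stood at -0.44 ± 0.14 on average (adjusted p = 0.132), and Mafg, the remaining small Maf gene, at -0.39 ± 0.18 (0.338). With pairs as a block, 1 of these 6 genes was called as higher and 3 as lower on average, against 5.87% and 11.5% of all genes.

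Of 22 tested genes of the MAP kinase cascades and of SRF with its cofactors, 0 were called in the rescue-labelled arrays by limma. In the KO-labelled arrays and on average, 0 were called as higher and 1 as lower. The shares of all genes called as lower there were 0.825% and 2.57%. The median average change was -0.09 log2. The gene called as lower was Mrtfb, a coactivator of SRF, which fell by 0.83 on the log2 scale in the KO-labelled arrays (SE 0.14, adjusted p = 0.0280). Its intensity was 713, 586 and 519.6 on the KO-labelled preshocked arrays, against 1152, 1072 and 1127 on the KO-labelled unheated arrays. The rescue-labelled preshocked arrays had 663 and 644, against 1281 and 1058 on the rescue-labelled unheated arrays. Mrtfb stood at -0.75 ± 0.17 log2 in that line without a call (adjusted p = 0.161), and at -0.79 ± 0.11 on average (0.00748). The responses of the lines differed by -0.08 ± 0.22, which was not called. Srf itself stood at -0.14 ± 0.16 on average (adjusted p = 0.802). Between the lines, Mapk12, a p38 kinase gene, was higher in KO-labelled cells by 4.45 ± 0.37 log2 unheated and by 4.79 ± 0.37 preshocked (adjusted p = 0.00335 and 0.00376). The summed intensity of 5 muscle markers differed between the lines as well, with 574 to 873 on KO-labelled and 218 to 347 on rescue-labelled arrays. Of the 2 tested, Acta1, skeletal muscle actin, was called in both states (1.41 ± 0.20 log2 unheated and 1.598 ± 0.203 preshocked, adjusted p = 0.0346 and 0.0335). The other tested marker was not called, and in preshocked cells it was not higher in the KO-labelled line. The median percentile of the 5 markers was 37 on KO-labelled and 40.8 on rescue-labelled preshocked arrays, and 44.1 and 37.9 on unheated ones. The part of these markers in the Mapk12 difference was not tested.

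Of 22 tested genes described as AP-1 targets in fibroblasts, 5 were called as higher in the KO-labelled arrays, 2 in the rescue-labelled arrays and 5 on average. In each, 0 were called as lower. Of all genes tested, 0.944%, 0.275% and 1.84% were called as higher in these comparisons. The list was chosen with earlier results of these data known, so these shares describe it and test nothing. The median average change was 0.11 log2 against -0.04 for all genes. Sprr1a, a cornified envelope gene with an AP-1 site in its promoter, had 613, 375 and 418 on the KO-labelled preshocked arrays, against 156, 58.2 and 39.7 on the KO-labelled unheated arrays. It had 274 and 256 on the rescue-labelled preshocked arrays, against 18.4 and 10.8 on the rescue-labelled unheated arrays, which is below the medians of 50.7 and 53.3 there. It rose in both lines (adjusted p = 0.00992 and 0.0125). With values under 32 set to 32, so that the dimmest values count as that floor, its change was 2.95 ± 0.30 log2 in the KO-labelled and 3.16 ± 0.37 in the rescue-labelled arrays (adjusted p = 0.00302 and 0.0120). Mmp13, collagenase 3, had 169, 128 and 135 on the KO-labelled preshocked arrays, against 51.7, 45.8 and 42.9 on the KO-labelled unheated arrays, and 77.6 and 104.9 on the rescue-labelled preshocked arrays, against 22.8 and 27.6 on the rescue-labelled unheated arrays. It rose by 1.80 ± 0.20 and 1.74 ± 0.25 (adjusted p = 0.00679 and 0.0307). Its unheated values lay below the medians of their arrays, such as 51.7 against 107 on array 6 and 22.8 against 50.7 on array 32. On the rescue-labelled unheated arrays they were also under 32, so the size of this rise rests on dim values. Vegfa, a vascular growth factor, Hbegf, an EGF receptor ligand, and Dusp1, a phosphatase that ends MAP kinase signals, rose in the KO-labelled arrays by 1.44 ± 0.20, 1.19 ± 0.16 and 1.17 ± 0.21 (adjusted p = 0.0138, 0.0124 and 0.0330). They also stood higher after preshock in the rescue-labelled arrays, without a call. Vegfa had 1230 and 1370 on the rescue-labelled preshocked arrays, against 498 and 510 on the rescue-labelled unheated arrays. Hbegf had 5570 and 5110 there, against 3331 and 3487. Dusp1 changed by 1.06 ± 0.26 log2 in that line (adjusted p = 0.187). Ccnd1 and Plaur, which are also described as AP-1 targets, stood at -0.17 ± 0.11 and 0.03 ± 0.13 on average and were not called.

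**Figure D4:**
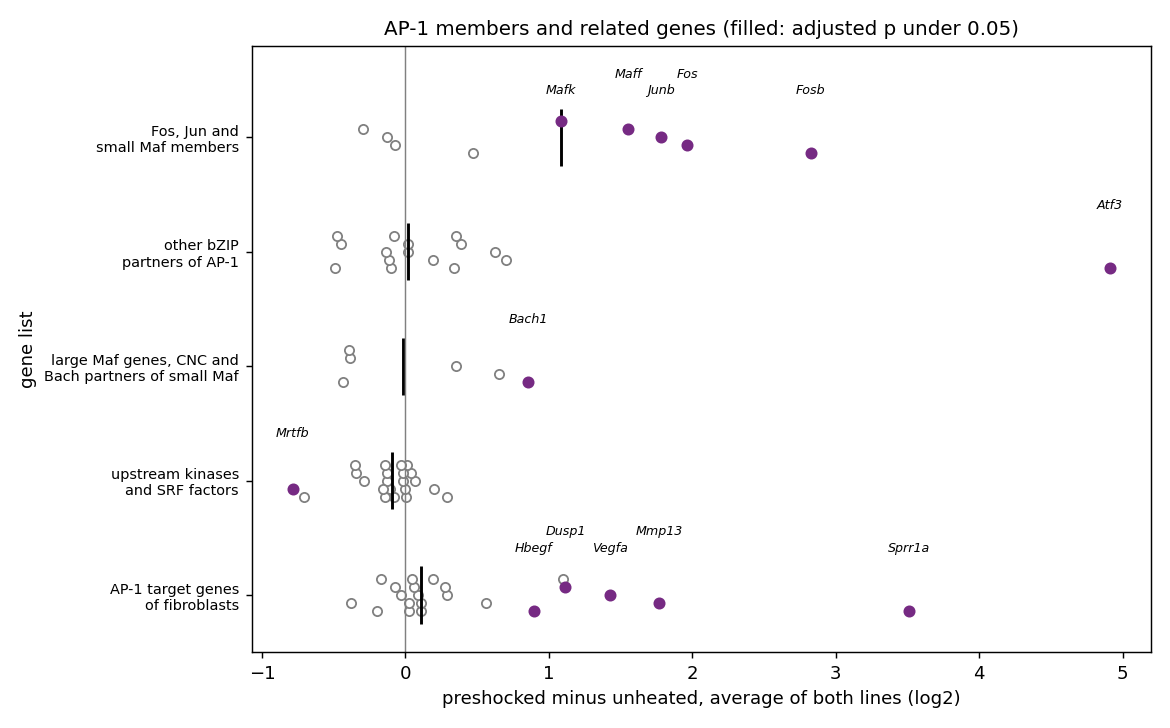
Change after preshock averaged over both lines (x axis, log2) of each tested gene in the 9 members and in 4 lists of related genes (y axis), with a vertical bar at each median. Filled, named points were called at an adjusted p under 0.05. The members' median of 1.08 lies to the right of the list medians, which run from -0.09 to 0.11.

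Among the genes other than the members, those whose normalized values followed each member most closely over the 10 arrays were found by Pearson's r. Preshocked and unheated arrays form separate clusters, which set much of r for the genes that rose, and all values share the same arrays. For Fos they were Csrnp1, a nuclear protein gene induced by stress (r = 0.973), and Rsrp1 (0.968). For Fosb they were the zinc exporter gene Slc30a1 (0.986) and Hsph1, an Hsp110 chaperone gene (0.983), and for Maff Hsph1 (0.994) and Atf3 (0.984). Fosb and Maff, as members left out of this ranking, followed each other at r = 0.992. Junb was followed by the kinase gene Dyrk3 (0.965) and the phosphatase gene Dusp5 (0.957), and Mafk by the chaperone gene Clu (0.974) and Txnip, a thioredoxin inhibitor (0.971). Jun, which did not follow the preshock, had no gene above 0.859 (C2cd5). For Jund the nearest were Gzmm (0.945) and Eif2ak3 (0.942), for Fosl1 Lactb2 (0.970) and Usp11 (0.967), and for Fosl2 Retreg1 (0.951) and Iars (0.909).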

How the data were processed

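Per the labels, biotin-labelled target from total RNA was hybridized to 1 array per sample. The authors deposited a linear intensity for each probe set, and no header or label names the software that summarised the probes. Mean intensity after trimming 2% at each end was 500.003 to 500.004 on every array, as scaling to a common target gives. Values below 1 (4935) were set to 1, and log2 values were quantile normalized because array medians differed by up to 1.08 log2. Gene names came from the platform's annotation: 34945 probe sets had 1 symbol, 932 several, 9160 none, and 64 controls were left out. The probe set with the highest mean stood for each gene, and the top 60% of genes by mean signal were tested. One limma fit (version 3.58.1, R 4.3.3, statmod 1.5.0) over the 10 arrays with a mean per group gave moderated statistics for 6 comparisons, with errors as standard errors. The fit was also run on simulated arrays with known changes and independent errors. Those arrays had no pairs, whereas the correlation within pairs was estimated at 0.716 here. The simulation therefore cannot vouch for the p-values of these paired arrays.

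Pairing was inferred from adjoining array numbers in the labels. Over 10915 genes, deviations from group means were correlated within each pair: the 5 correlations were 0.721, 0.376, 0.552, 0.370 and 0.370. Arrays 5 and 6 lay apart together, which makes the deviations of the other KO-labelled arrays alike however these are paired. Mismatched pairs were not correlated, so 0.376 and 0.552 do not check the pairs 11 and 12 or 13 and 14. With 2 arrays a group, the deviations of both rescue-labelled pairs are equal in size, so these pairs give 1 correlation. The members and lists were chosen with earlier results of these data known. Beside the members, the genes named are Hspa1b and the 2 genes other than the members that were most like each member. Up to 4 called members of each list with the smallest p are named as well. Atf3, Bach1, Mrtfb, Sprr1a, Mmp13, Vegfa and Hbegf come from that rule, and Jdp2, Atf4, Cebpb, Nfe2l2, Mafg, Srf, Mapk12, Dusp1, Acta1, Ccnd1 and Plaur were chosen after their values were seen. The alternatives tried were the deposited scaling, median centring, other filters, a floor of 32, the mean over probe sets, a robust trended fit, the pair block and leaving out arrays. Precision is limited by how few arrays each group has.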

Additional observations from a re-analysis of the deposited data

How the results depend on the processing

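Of 162 recomputed counts of called genes or probe sets, 123 stayed within 1.5 times the reported count and 39 did not, and the cause was not tested unless given. The 123 include the difference of the responses and the comparisons between the lines, where no member was called under any setting. The 39 thus all lie in the comparisons of preshocked with unheated arrays. Fosb was called in the KO-labelled arrays under every alternative in which it was tested (adjusted p = 0.00206 to 0.0342), and Fosb, Junb and Maff were called on average under every alternative in which they were tested. With no filter on dim genes, where more genes share the adjustment, 1 gene was called in the KO-labelled arrays, 0 in the rescue-labelled arrays and 3 on average. With the top 40% of genes, a filter that removes Fos and Fosb, the counts were 3, 1 and 3. The rescue-labelled count was 1 with the deposited scaling, with median centring, with the mean over probe sets and with the replicate block. Leaving out 1 array gave 2 to 4 genes in the KO-labelled arrays, 0 to 2 in the rescue-labelled arrays and 3 to 5 on average. The lowest of these came without KO preshocked replicate 2 or KO unheated replicate 2 for the KO-labelled arrays, and without rescue preshocked replicate 1 or rescue unheated replicate 1 on average. The rescue-labelled count was 0 without any 1 rescue-labelled array, KO preshocked replicate 2 or KO unheated replicates 1 or 2, and 1 without KO preshocked replicate 3. Of the 13 probe sets, 2 were called in the KO-labelled arrays with a floor of 32 and 4 with the robust fit, and 2 in the rescue-labelled arrays with the robust fit. On average, 1 was called with the deposited scaling, with median centring and without the pair 5 and 6 (an alternative chosen after seeing the data), 5 with the robust fit, 0 with the replicate block, and 0 to 1 without 1 array. The block changed the calls of Mafk and Jund given with those genes, and those of Fosb and Maff in the rescue-labelled arrays.

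Of 1014 recomputed single-gene differences 59 turned sign, none of them called in the reported fit. For preshocked minus unheated in the KO-labelled arrays, Fosl1 became 0.029 with the deposited scaling and 0.114 with median centring, Fosl2 0.035 and Jun 0.029 with median centring, and Jun 0.198 with the mean over probe sets. Without 1 array they ranged from -0.341 to 0.184 (Fosl1), -0.191 to 0.122 (Fosl2) and -0.319 to 0.166 (Jun). In the rescue-labelled arrays Fosl2 became 0.062 with the mean over probe sets and ranged from -0.470 to 0.233 without 1 array, and Jund ranged from -0.135 to 0.699. On average Fosl2 ranged from -0.253 to 0.098. For the difference of the responses, Fosb became -0.338 with the deposited scaling, -0.265 with median centring and -0.393 without the pair 5 and 6. Fosl2 became -0.327 with the mean over probe sets and -0.080 without that pair, and Mafk -0.022 without it. Without 1 array the differences ranged from -0.154 to 0.423 (Fosb), -0.101 to 0.425 (Fosl1), -0.269 to 0.434 (Fosl2), -0.041 to 0.799 (Jund), -0.184 to 0.102 (Maff) and -0.194 to 0.411 (Mafk). Between the unheated lines, Fosb became 0.227 with the deposited scaling, Jun 0.054 and Jund 0.260 with the mean over probe sets, and Maff -0.472 and Mafk -0.242 with median centring. Without 1 array Jun ranged from -0.288 to 0.057, Jund from -0.472 to 0.203 and Maff from -0.065 to 0.213. Between the preshocked lines, median centring gave -0.142 for Jun, -0.249 for Jund, -0.484 for Maff and -0.092 for Mafk. Maff became -0.016 with the deposited scaling and -0.138 without the pair 5 and 6. Without 1 array Fosb ranged from -0.466 to 0.112, Jund from -0.175 to 0.663 and Maff from -0.136 to 0.149.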
